A study of Homo sapiens with 2 samples.

Results

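The nuclear-encoded mRNAs of the mitochondrial respiratory chain were examined for contact with RBM47, an RNA-binding protein, in a brain metastatic breast cancer cell line. Members were all genes in the deposited cluster table whose symbol begins with NDUF followed by A, B, C, S or V, with UQCR, with COX4 to COX8 or with ATP5, or is SDHA, SDHB, SDHC or SDHD. The rule found 45 of the 7712 genes with a cluster, and these 45 genes held 297 of the 233546 clusters. Of the 45, 36 encode subunits of the 5 complexes and 4 encode complex I assembly factors (NDUFAF1, NDUFAF2, NDUFAF4 and NDUFAF7). The others are COX7A2L, ATP5S, the readthrough transcripts NDUFC2-KCTD14 and ATP5J2-PTCD1, and the pseudogene ATP5EP2.

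The respiratory chain is a set of protein complexes in the inner mitochondrial membrane. Complexes I and II pass electrons from NADH and succinate to ubiquinone, complex III hands them to cytochrome c, complex IV delivers them to oxygen, and complex V, the ATP synthase, uses the resulting proton gradient to make ATP. Some subunits are made inside mitochondria from the mitochondrial genome, but most are encoded in the nucleus, translated in the cytoplasm and imported.

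The cells were MDA231-BrM2a, a non-clonal derivative of MDA-MB-231 that carried wild-type RBM47 with a Flag tag under doxycycline control. Doxycycline was given at 1 ng/ml over 3 days to every culture ahead of irradiation, and the only group, Flag_RBM47, had 2 replicates. HITS-CLIP fixes a protein to its RNA contacts with ultraviolet light, recovers the protein by its tag and reads the RNA pieces still linked to it. The authors counted unique reads, called tags, in clusters of overlapping tags.

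Clusters in the table held 999047 tags in replicate 1 and 3489697 in replicate 2. No deposited cluster had under 5 tags in total or lacked a tag in either replicate, so the table covers part of each library and a gene without a cluster may still have had tags below these minimums. No control pull-down and no RNA level of the same cells was used here. A tag count therefore cannot be divided into binding per mRNA molecule and mRNA abundance. Of markers of the line, the mesenchymal genes VIM, CD44 and AXL had 3345, 8676 and 3265 tags, while ERBB2 and EPCAM had 5 and 11 and ESR1 and CDH1 had no cluster. The authors describe binding seen in both replicates as biologically reproducible. Whether the replicates came from separate cultures is not stated, so the spread between them may be technical.

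Respiratory chain mRNAs had few tags each. Their clusters held 812 tags in replicate 1 and 2525 in replicate 2, which was 0.768 ± 0.0631 tags per 1000 (SD, n = 2). By the authors' total, which counts both replicates, they held 3298 tags. The 45 genes were 0.584% of the genes in the table but held 0.0932% of the tags assigned to genes. The median was 25 tags per gene, against 96 over all genes with a cluster, and 3 clusters per gene against 9. These counts are not corrected for mRNA length. The median annotated mRNA was 756 nt over the listed subunits, against 2935 nt over protein-coding genes. The part of length in the lower counts was not tested. Within the clusters the density was similar, with a median of 122.75 tags per kb of cluster against 115.98 over all genes. More than 100 tags were present in 9 of the 45 genes (20%), whereas 49.3% of all genes with a cluster had that many. No respiratory gene was among the 1000 genes with most tags, and the highest, NDUFV2, ranked 1206.

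The tags were concentrated in few genes. NDUFV2, NDUFS1, NDUFAF2, SDHD and COX7A2L together held 55.8% ± 1.43 of the respiratory tags (SD, n = 2), while the 22 genes with at most 20 tags held 220 tags, or 6.67%. The order of the genes was much alike in the replicates, with a Spearman's rho of 0.959 across the 45 genes. Across the 297 single clusters rho was 0.320. Both are descriptions across genes or clusters from 2 libraries, and in replicate 1 the median respiratory cluster held 2 tags.

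**Figure D1:**
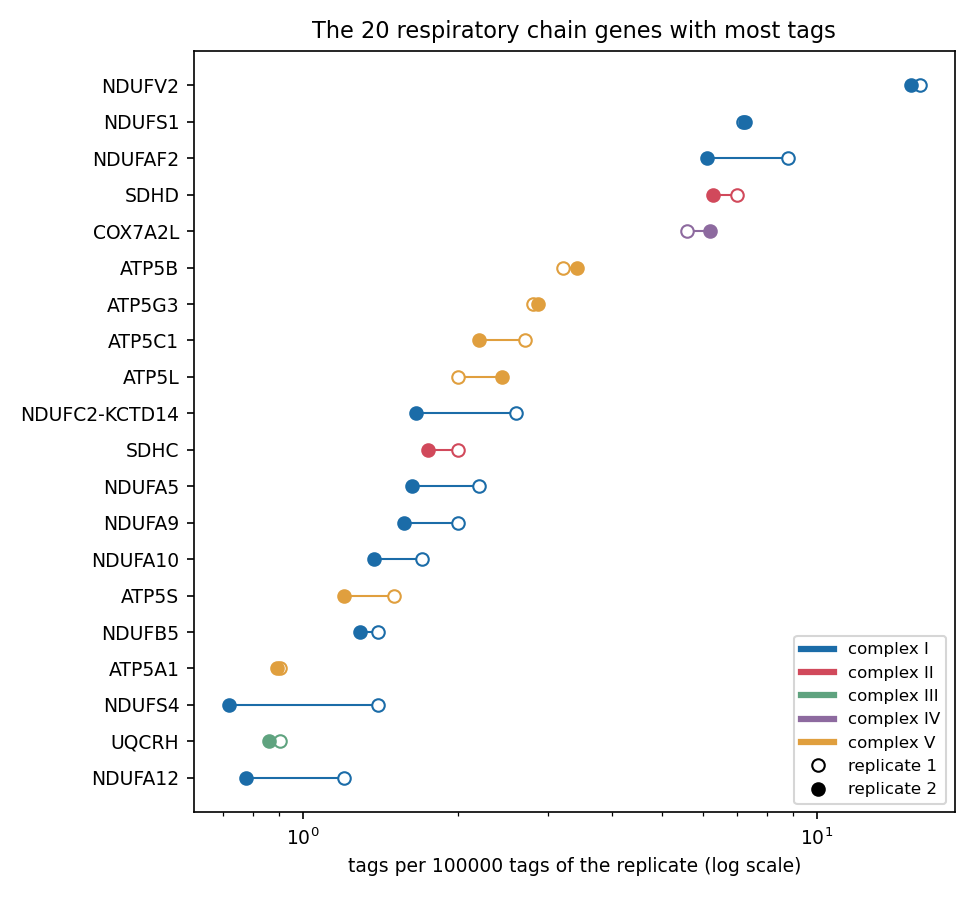
Tags per 100000 tags of each replicate (log axis) for the 20 respiratory chain genes with most tags. Open circles are replicate 1, filled circles replicate 2, and colours mark the complex; NDUFV2 stands apart at 15.9 and 15.3, and NDUFAF2 has the widest gap among the leading 5 genes.

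Coverage was uneven across the complexes. Of 81 nuclear-encoded subunit genes listed, 36 had a cluster (44.4%), against 36.2% of all 20056 protein-coding genes. With at least 1 cluster of 10 tags or more, the share was 28.4% (23 genes), close to the 26.6% of all protein-coding genes. Counted from the tags of replicate 1 alone, at the same minimum of 5 tags per cluster, 18 of the 45 genes had a cluster, and from replicate 2 alone 38 did. All 4 subunits of complex II had a cluster. So did 9 of 15 in complex V, 4 of 8 in complex III, 14 of 37 in complex I and 5 of 17 in complex IV. The complex IV list counts alternative genes of a subunit separately, such as COX4I1 and COX4I2 or COX6A1 and COX6A2. Which of them these cells express was not tested, so the shares of the complexes are not directly comparable. Complex I subunits held 33.2 ± 2.65 tags per 100000, complex V 12.5 ± 0.180, complex II 9.60 ± 0.857, complex IV 1.96 ± 0.341 and complex III 1.69 ± 0.160 (SD, n = 2 each). These are sums over different numbers of genes and mRNA lengths. The values of complexes III and IV lay within the spread of each other, and the other complexes did not overlap between replicates.

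**Figure D2:**
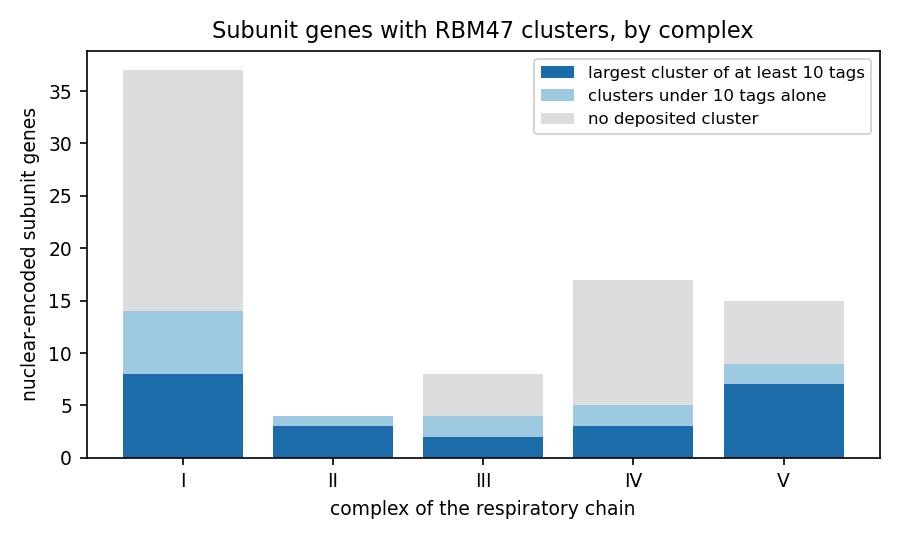
Number of nuclear-encoded subunit genes per complex, split into genes whose largest cluster had at least 10 tags, genes with smaller clusters alone, and genes with no deposited cluster. Complex II has a cluster in 4 of 4 genes, and complex IV in 5 of 17.

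In complex I, most tags lay in genes of the electron input part of the catalytic core. NDUFV2 and NDUFS1, both iron-sulfur proteins, were the subunits with most tags of any complex. NDUFV1, which binds NADH, had no cluster, and neither did the core subunits NDUFS3, NDUFS7 and NDUFS8, which lie on the ubiquinone side. The accessory subunits surround this core.

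NDUFV2 held 159 tags in replicate 1 and 533 in replicate 2, or 15.6 ± 0.454 tags per 100000 (SD, n = 2). Nearly all were intronic: 63 of its 67 clusters and 613 of its 685 tags (89.5%) carried an intron label, and the 3'UTR held 6 tags. Per kb of annotated intron, its 19.9 intron tags ranked 117 among 7140 genes. The clusters crowded near the start of the gene, where the first 10000 nt from the first cluster held 38 clusters and 452 of 685 tags. The largest was an intron cluster at chr18:9095263-9095549 on the plus strand, with 10 tags in replicate 1, 39 in replicate 2 and 49 in total. The 2 clusters labelled as unclassified exon held 44 and 17 tags in total. Coordinates are on hg18, as the authors' table gives them.

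NDUFS1 differed from NDUFV2 in where its tags lay. It had 72 tags in replicate 1 and 253 in replicate 2, or 7.23 ± 0.0304 tags per 100000, and no intron cluster. Its 8 clusters in the 3'UTR, spread over 972 nt, held 249 of 320 tags (77.8%), and 6 clusters in coding sequence held 45. The largest lay at chr2:206696141-206696259 on the minus strand, with 15 tags in replicate 1 and 42 in replicate 2. Of the NDUFS1 clusters, 4 had at least 30 tags, as many as in SDHD.

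NDUFAF2, a chaperone that helps to build complex I and is no part of the finished enzyme, resembled NDUFV2 in location and not in density. It had 88 and 214 tags, or 7.47 ± 1.89 tags per 100000 (SD, n = 2), the largest SD of the 5 leading genes. Of these, 98.3% lay in 46 intron clusters spread over 197313 nt. The median intron cluster held 6 tags and the largest 12, for example at chr5:60289979-60290137 on the plus strand with 6 tags in each replicate. In tags per kb of cluster NDUFAF2 ranked 6822 of 7712 genes, against 3714 for NDUFV2. Per kb of annotated intron, its 1.43 intron tags ranked 1249 among 7140 genes, against 117 for NDUFV2. The other assembly factors were nearly bare, with 18 tags in NDUFAF1, 6 in NDUFAF4 and 5 in NDUFAF7.

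Among accessory subunits, NDUFA5 (22 and 57 tags) carried its clusters in the 3'UTR alone, and NDUFA10 (17 and 48 tags) had 90.8% of its tags there. NDUFA9, by contrast, had 20 and 55 tags of which 89.3% were intronic. NDUFB5 (14 and 45 tags) had 50.0% of its tags in the 3'UTR, and NDUFS4 (14 and 25 tags) had 84.6% in introns. NDUFA12 had 12 and 27 tags. NDUFS6, NDUFB4, NDUFAB1, NDUFB6, NDUFA6 and NDUFB2 had 17 tags or fewer in total. NDUFS6 and NDUFB6 had intron clusters alone.

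The readthrough NDUFC2-KCTD14 had 26 and 58 tags, 90.4% of them labelled 3'UTR, with the largest cluster at chr11:77458393-77458470 on the minus strand (10 and 9 tags). Its clusters fell into 2 groups separated by 52793 nt, with 5 upstream clusters of 70 tags and 2 downstream clusters of 13 tags. Readthrough transcripts share exons with the genes they join, and whether the upstream tags came from NDUFC2, a complex I subunit that has no cluster under its own symbol, cannot be told from the table. ATP5J2-PTCD1, the readthrough of ATP5J2, had 2 and 4 tags. Complex I subunits with no cluster also included NDUFV3, NDUFS5, NDUFA1, NDUFA2, NDUFA3, NDUFA7, NDUFA8, NDUFA11, NDUFA13, NDUFB1, NDUFB3, NDUFB7, NDUFB8, NDUFB9, NDUFB10, NDUFB11 and NDUFC1.

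Complex II is succinate dehydrogenase, shared with the citric acid cycle, and its tags were nearly all in 3'UTRs (93.0% of 412 tags). SDHD, a membrane anchor, held most of it, with 70 tags in replicate 1 and 219 in replicate 2, or 6.64 ± 0.517 tags per 100000 (SD, n = 2). Its 7 clusters in the 3'UTR held 281 of 286 tags within 623 nt. At 525 tags per kb of cluster SDHD was the densest respiratory gene and ranked 194 of 7712. The cluster at chr11:111471453-111471590 on the plus strand had 25 and 95 tags, and its total of 120 made it the only respiratory cluster above 100 tags. Of clusters in all genes, 2.20% reached that number.

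The other anchor, SDHC, had 20 and 61 tags in 8 clusters, all in the 3'UTR. No cluster of SDHC exceeded 13 tags, and its density was 98.7 tags per kb of cluster. SDHD had the higher count in each replicate. In the transcripts used here the 3'UTRs of SDHC and SDHD are 773 and 824 nt long. The SDHC clusters, all labelled 3'UTR, lay as far as 1622 nt apart on the genome, beyond its annotated length. These lengths therefore do not show that the labelled 3'UTRs of the anchors were alike. SDHB, the iron-sulfur subunit, had 8 and 26 tags, 63.6% of them in the 3'UTR. SDHA, the flavoprotein that oxidises succinate, had 4 and 8 tags in 2 intron clusters.

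Complex III subunits held 72 tags in total, close to the 79 of complex IV. UQCRH, the hinge protein, led with 9 and 30 tags, 79.5% of them in the 3'UTR. The core protein UQCRC2 had 5 and 12 tags, all intronic. UQCRB had 3 and 8 tags, and the Rieske iron-sulfur protein UQCRFS1 had 1 and 5. UQCRC1, UQCRQ, UQCR10 and UQCR11 had no cluster.

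In complex IV, cytochrome c oxidase, the subunits with clusters were COX6C (8 and 21 tags), COX7B (5 and 20), COX7C (4 and 7), COX7A2 (4 and 7) and COX5A (1 and 5). Their tags were 77.2% in the 3'UTR. NDUFA4 (a complex IV subunit despite its name), COX4I1, COX4I2, COX5B, COX6A1, COX6A2, COX6B1, COX6B2, COX7A1, COX7B2, COX8A and COX8C had none. COX7A2L, a relative of COX7A2 known for joining complexes III and IV into supercomplexes, had more tags than any subunit of the enzyme. It had 56 tags in replicate 1 and 216 in replicate 2, or 5.90 ± 0.413 tags per 100000 (SD, n = 2), and 269 in total.

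COX7A2L tags ran from the coding sequence into the 3'UTR. The 3'UTR clusters held 130 tags (48.3%), a cluster that spans the stop codon region, labelled as both CDS and 3'UTR, held 56, coding sequence held 50 and introns 33. The largest cluster was in the 3'UTR at chr2:42431321-42431466 on the minus strand, with 12 tags in replicate 1 and 54 in replicate 2.

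**Figure D3:**
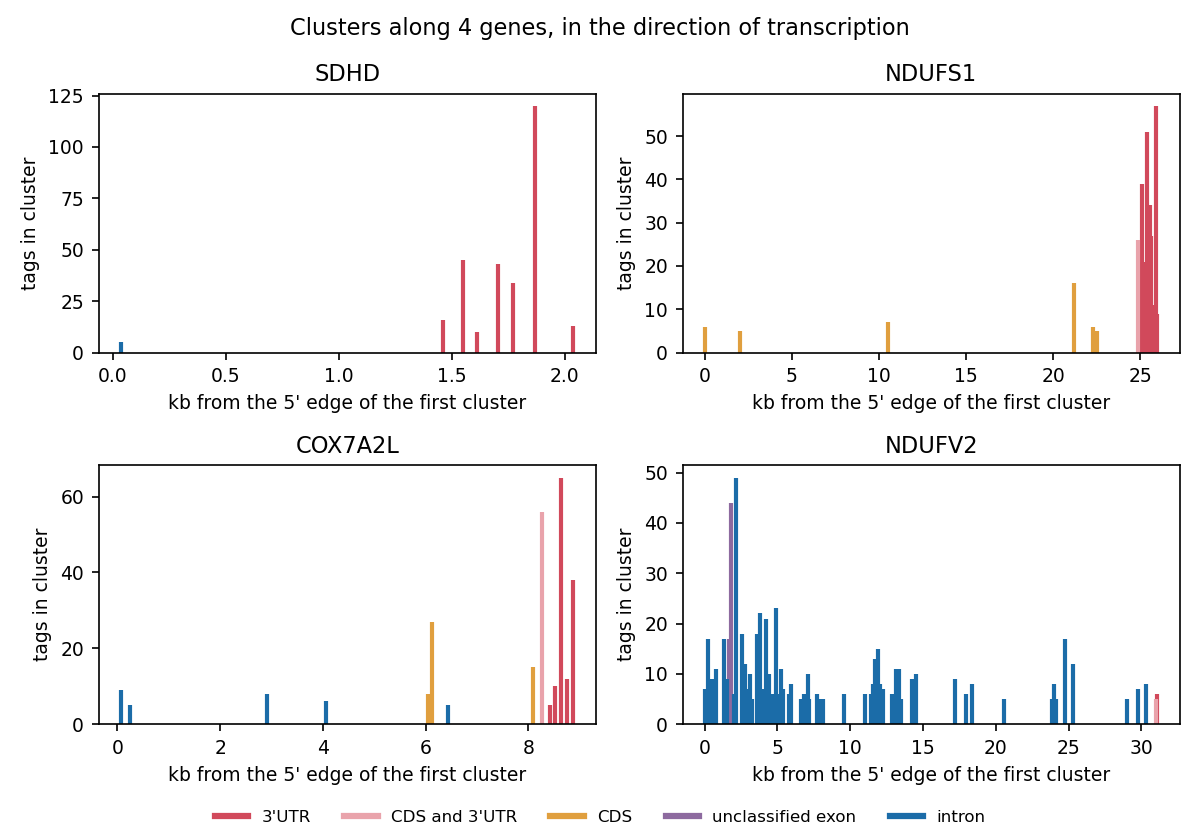
Tags in each cluster (authors' total) against distance in kb from the 5' edge of the first cluster, in the direction of transcription, with colour for the location label. SDHD, NDUFS1 and COX7A2L have their highest clusters at the 3' end (120, 57 and 65 tags), while NDUFV2 has 38 of 67 clusters in its first 10000 nt.

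In complex V, coding sequence made up 32.5% of the tags of the subunits. The share was 18.1% in complex III, 8.86% in complex IV, 4.07% in complex I and 1.46% in complex II, and 10.5% over all genes. Outside complexes I and V the shares rest on few coding tags. These were 8 in UQCRH and 5 in UQCRB for complex III, 7 in COX7B for complex IV and 6 in SDHB for complex II. ATP5B, the catalytic beta subunit of the F1 head, had 32 and 119 tags, or 3.31 ± 0.146 tags per 100000 (SD, n = 2), and 91 of 150 lay in coding sequence. Its largest single cluster was still in the 3'UTR, at chr12:55318227-55318328 on the minus strand, with 11 and 27 tags. ATP5C1, the gamma subunit that turns inside the head, had 27 and 77 tags, with 57 of 103 in coding sequence and a largest cluster in the 3'UTR at chr10:7889643-7889761 (plus strand, 8 and 18 tags). ATP5A1, the alpha subunit, had 9 and 31 tags, 28 of 40 in coding sequence. The annotated coding sequence and 3'UTR are 1587 and 148 nt long in ATP5B and 894 and 173 nt in ATP5C1. In ATP5A1 they are 1659 and 4034 nt. The shares are not corrected for these lengths and do not show a preference for coding sequence.

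The membrane subunits with clusters, ATP5G3 and ATP5L, had 4.0% and 0% of their tags under the label for coding sequence alone. This was not particular to the membrane part. ATP5E of the central stalk and ATP5J, ATP5F1 and ATP5H of the peripheral stalk, all with few tags, also had none under that label. ATP5G3 encodes subunit c, the protein of the rotating ring, and had 28 and 100 tags, 91.2% of them in the 3'UTR. Its largest cluster lay at chr2:175751075-175751227 on the minus strand, with 5 and 32 tags. The genes ATP5G1 and ATP5G2 encode the same mature protein and had no cluster, and their annotated 3'UTRs are 102 and 144 nt long against 2030 nt in ATP5G3. ATP5L, subunit g, had 20 and 85 tags, led by a cluster over the end of the coding sequence and the 3'UTR at chr11:117784916-117785103 (plus strand, 9 and 28 tags). ATP5E, ATP5J, ATP5F1 and ATP5H had 15 tags or fewer in total, and ATP5D, ATP5O, ATP5I and ATP5J2 had no cluster. ATP5S, a factor linked to the synthase, had 15 and 42 tags, 78.9% intronic.

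Over the 45 genes, 43.5% ± 0.351 of tags lay in 3'UTRs and 37.2% ± 1.71 in introns (SD, n = 2). The values over all genes were 40.7% ± 1.55 and 28.5% ± 2.37. The intron share rested on NDUFV2 and NDUFAF2. Without these 2 genes it was 13.7% and the 3'UTR share was 61.8%. Coding sequence held 9.35% ± 1.73 of respiratory tags, against 10.5% ± 0.138 over all genes, and no cluster was labelled as 5'UTR alone. Clusters in 3'UTRs were larger than those in coding sequence or introns, with a median of 11.5 tags against 7.5 and 6. The 14 clusters labelled as both CDS and 3'UTR had a median of 7, and the 5 in unclassified exons had 17. At least 10 tags were reached by 64.0% of 3'UTR clusters and 20.3% of intron clusters, compared with 64.4% and 28.5% over all genes.

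**Figure D4:**
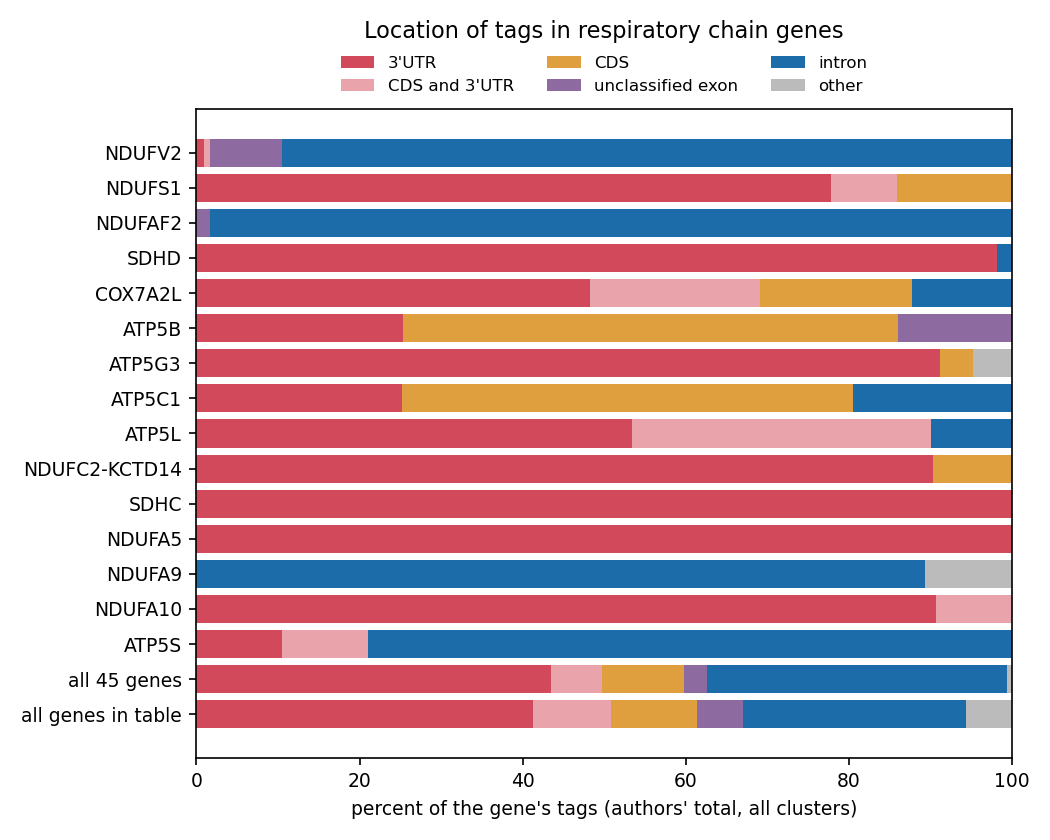
Percent of each gene's tags (authors' total) by location label for the 15 respiratory genes with most tags, for all 45 and for all genes in the table. NDUFV2, NDUFAF2, NDUFA9 and ATP5S are mostly intronic, ATP5B and ATP5C1 have most tags in coding sequence, and the 3'UTR makes up over 90% of the bar in SDHD, SDHC, NDUFA5, NDUFA10, ATP5G3 and NDUFC2-KCTD14.

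Respiratory subunit mRNAs are short. The median annotated 3'UTR of the 81 subunits was 192 nt, against 1041 nt over protein-coding genes. It was 659 nt in the 36 subunits with a cluster and 132 nt in the 45 without. Among subunits with a 3'UTR under 250 nt, 14 of 48 had a cluster (29.2%), against 13.2% of all genes of that length. From 500 to under 1000 nt the count was 7 of 9 (77.8%) against 32.3%, and at 1000 nt or more it was 12 of 18 (66.7%) against 52.0%. The subunit share lay above that of all genes in each length class, including 250 to under 500 nt with 3 of 6 against 22.3%. The classes are small, from 6 to 48 subunits, and genes are not replicates of a condition. The shares are therefore descriptions, and the difference from all genes was not tested. All genes include many that these cells may not express, and the part of expression in this difference was not tested.

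The base composition of the 3'UTR followed the same split. Subunits with a cluster in an exon had a median of 33.0% U in their 3'UTR, and those without one had 27.1%. Over all protein-coding genes the medians were 32.7% and 27.1%. Lengths and composition came from 1 GENCODE transcript per gene, which can differ from the transcripts made in these cells. Longer 3'UTRs and higher U content were not separated here.

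**Figure D5:**
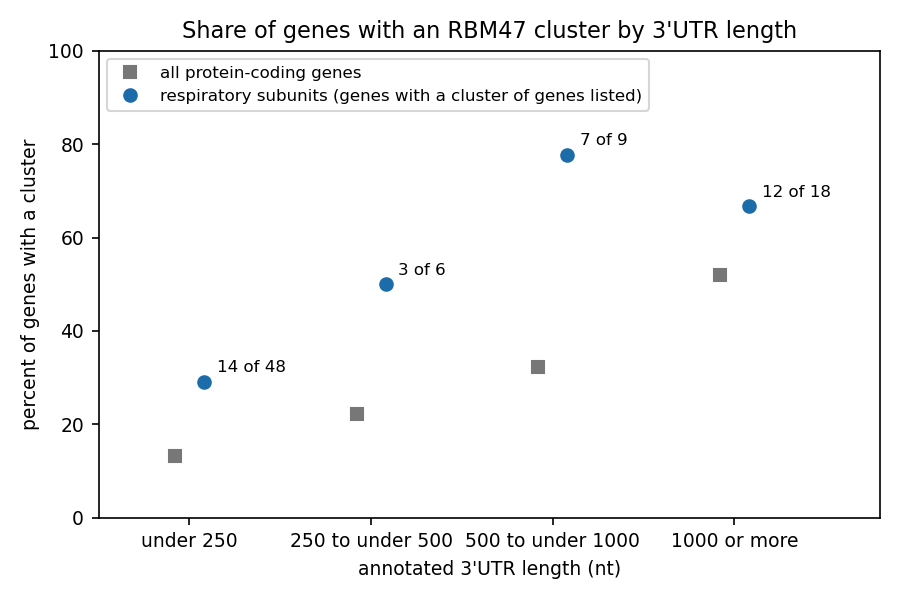
Percent of genes with at least 1 deposited cluster by annotated 3'UTR length in nt, for respiratory subunits (circles, with counts) and all protein-coding genes (squares). The circles lie above the squares in each class, from 29.2% against 13.2% below 250 nt to 66.7% against 52.0% at 1000 nt or more.

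The replicates were compared gene by gene through the share of tags from replicate 1. That share was 24.3% over the respiratory clusters (Wilson 95% interval 22.9 to 25.8, counting error only), against 22.0% over all tags assigned to genes. By an exact two-sided binomial test with Benjamini-Hochberg adjustment over all genes, 0 of the 45 genes differed between replicates, where 1.52% of all genes did. The respiratory genes had a median of 25 tags, against 96 over all genes, so only a large difference in split could be called in most of them. The result for genes does not show that the replicates agreed. By the same test over all clusters, 0 of the 297 differed, where 0.0111% of all clusters did. The median respiratory cluster held 7 tags, too few for any split to pass after adjustment over all clusters. The result for clusters therefore does not show that the replicates agreed. At an unadjusted p under 0.05 there were 2 respiratory genes, NDUFAF2 and NDUFAB1 (4.44%, against 10.5% of all genes), and 11 clusters (3.70%, against 3.04% of all clusters). A beta-binomial test, which allows for extra spread, called 0 of either. NDUFAF2 had 29.1% of its tags from replicate 1, with p = 0.0043 in the exact binomial test and an adjusted p of 0.140.

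Other genes of the pathway were taken from a list outside the symbol rule. CYCS, cytochrome c itself, had 55 and 144 tags, 86.9% in the 3'UTR. ATPIF1, the inhibitor of the ATP synthase, had 2 and 7 tags, and CYC1, USMG5 and C14orf2 had no cluster. Of 32 assembly factors, 18 had a cluster (56.2%, against 36.2% of all protein-coding genes). Of these 18, 3 had more than 100 tags (16.7%, against 49.3% of all genes with a cluster), namely TTC19 (562), LRPPRC (526) and COX11 (102). Of 10 regulators of respiratory genes, 6 had a cluster, against the same 36.2% of all protein-coding genes. TFAM, which packages mitochondrial DNA and helps to start its transcription, led with 182 and 643 tags, 814 in total, more than any member. TFB1M had 200 tags and NRF1 had 140, mostly in introns, and GABPA had 126 with 93.7% in the 3'UTR. The mitochondrial genome itself held 82 clusters with 1247 and 4412 tags, none assigned to a gene, so the subunits it encodes were not analysed here.

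Some counts may include tags of near-identical copies. RefSeq lists 193 pseudogenes whose symbols fit the rule, among them 18 of COX6C and 12 each of NDUFA5 and NDUFB4. How reads with several matches were assigned is not given in the sources used here. ATP5EP2, a pseudogene copy of ATP5E, had 2 and 6 tags, which cannot be told apart from those of ATP5E.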

How the data were processed

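HITS-CLIP was done on 2 replicates of 1 group. Fragments were tailed, reverse transcribed with barcoded primers and collapsed to unique tags, and the authors deposited counts of tags per cluster for each replicate and for the total, with a location label, gene ID and symbol. The submitters' processing notes name Novoalign and hg18, and aligner settings are not given in the sources used here. The deposited coordinates were left as they were, and whether they count from 0 or 1 is not known. The replicate columns exceeded the authors' total by 39 tags in 30 respiratory clusters.

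Members were selected by symbol, and 1 listed gene is not reported by name here. The members, gene lists and tests were chosen with earlier results of these data known. Every member with a cluster could be named, with values by replicate for the 20 with most tags and the leading genes of each complex. Tags per 100000 used each replicate's sum over all clusters as denominator, and no count was filtered in the main values. Splits between replicates were tested by an exact two-sided binomial test against the share of replicate 1 over all genes or clusters, with Benjamini-Hochberg adjustment at 0.05. The test was checked on simulated data in which only genes or clusters with at least 100 tags were changed. That check does not cover smaller counts, which most respiratory genes and clusters had. Transcript lengths and composition came from GENCODE v44 mapped to GRCh37, matched by symbol for 19255 of 20056 protein-coding genes in RefSeq, and no coordinate was carried between builds. Alternatives were minimums of 10 and 30 tags, other denominators, other location labels, clusters in place of tags, subunits only, each replicate left out, another scaling and a beta-binomial test. Python 3.11.15, pandas 2.3.3, scipy 1.17.1 and statsmodels 0.14.6 were used.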

Additional observations from a re-analysis of the deposited data

How the results depend on the processing

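Of 32 alternative settings, 18 kept their value within the limits set and 14 moved it. The number of respiratory genes fell from 45 to 28 with clusters of at least 10 tags and to 7 with at least 30, and leaving out each replicate gave 18 to 38, the lower value without replicate 2. Respiratory tags per 1000 were 0.969 over tags with a gene ID, 0.613 at 10 tags or more and 0.590 for subunits only, and leaving out each replicate gave 0.724 to 0.813. The 3'UTR share was 50.2% with every label that includes the 3'UTR, 59.5% at 10 tags or more and 29.0% counted over clusters. The intron share was 21.0% at 10 tags or more and 51.5% over clusters, so the order of 3'UTR and intron depends on whether tags or clusters are counted. Without NDUFV2 and NDUFAF2, a setting chosen after seeing the data, the shares were 61.8% and 13.7%. The leading gene, NDUFV2, held 20.3% ± 1.08 of respiratory tags and 18.2% at 10 tags or more. The cause of these shifts was not tested. No respiratory gene or cluster differed between replicates under any setting of those tests, the exact binomial test with another scaling and the beta-binomial test included. No paired analysis was possible because the labels give a single group. With a median of 2 tags per respiratory cluster in replicate 1, single clusters give little precision.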
